A study of Mus musculus with 10 samples.

Results

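T-5224 is a small-molecule inhibitor of the transcription factor AP-1, and its effect on ASZ001 cells was read across all genes of an RNA-seq table with 2 libraries on each side. Cells received 20 µM T-5224 or the vehicle DMSO for 24 h. All rows with a gene name were taken, 16719 in all, and the 10809 with a mean expression of at least 1 RPKM (a read count divided by the gene length and by the reads mapped in that library) over the 4 libraries were tested. These 4 libraries are part of 10 libraries of ASZ001 cells. The other 6 belong to a separate experiment, in which 3 libraries with 10 µM SB431542, an inhibitor of the TGFß receptor kinase ALK5, have 3 DMSO libraries of their own. ASZ001 is a murine basal cell carcinoma (BCC) line, which the study uses as a model of BCC that withstands inhibitors of Smoothened (SMO). All groups were kept in medium with little serum and low calcium during treatment. The results therefore describe a single cell line at 1 dose and 1 time, and the DMSO cells were serum-deprived too.

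AP-1 is a dimer of basic leucine zipper (bZIP) proteins, in which a Jun protein pairs with another Jun protein or with a Fos protein. Members of the ATF, MAF and BATF families are bZIP proteins that can take the place of a partner and change the DNA sequence that is bound. In the epidermis AP-1 is known as a regulator of keratin, differentiation, matrix protease and cytokine genes, and it is a classic endpoint of MAP kinase signaling. T-5224 was designed to keep Fos and Jun dimers from binding DNA.

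The DMSO libraries had 32.0 and 39.3 M reads and the T-5224 libraries 51.6 and 49.4 M reads, read from the steps between low values. Over the genes tested, the log2 values of the 2 libraries of a group differed with an SD of 0.162 for DMSO and 0.123 for T-5224. All 9 basal keratinocyte markers examined were present in every library, at 1.40 RPKM or more. Their summed level was 15096 and 15851 RPKM with DMSO and 2623 and 2509 RPKM with T-5224, and Krt5, Krt14 and Krt17 made up most of it. Among the other members, Epcam was higher with T-5224 (73.3 and 68.1 RPKM with DMSO, 125.8 and 123 RPKM with T-5224), and Cdh1 went from 156 and 152 RPKM to 107 and 103 RPKM. Of 7 fibroblast markers only Dcn passed 1 RPKM, their sum was between 2.53 and 2.84 RPKM in all libraries, and Lum and Thy1 were not listed. Of 5 melanocyte markers only Pmel was listed, at no more than 0.426 RPKM. Of 4 endothelial markers only Pecam1 passed 1 RPKM (10.7 and 11.8 RPKM with DMSO and 4.67 and 4.11 RPKM with T-5224), with Kdr not listed and Cdh5 at 0 in 3 of 4 libraries. Of 5 blood cell markers only Cd68, a lysosomal protein of many cell types, passed 1 RPKM (16.7 and 18.6 RPKM with DMSO and 32.7 and 33.2 RPKM with T-5224), with Ptprc and Cd3e at 0 in both T-5224 libraries. The ribosomal precursor Rn45s stood at 3401 and 3473 RPKM with DMSO and at 1862 and 5184 RPKM with T-5224, so the first T-5224 library was the lowest of the 4 and the second the highest. In such bulk RNA, fewer cells of a kind and less RNA per cell cannot be told apart.

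T-5224 changed a large part of the transcriptome in both directions. A total of 1144 genes were called down and 1121 up out of 10809 tested, where down and up mean a fold change over 2 and an adjusted p under 0.05 (limma with Benjamini-Hochberg adjustment). These calls make up 10.6% and 10.4% of the genes tested, which is the background for every count below. Without the limit on the fold change, the adjusted p (limma) alone called 39.4% of the genes lower and 40.3% higher. The standard error of a log2 fold change had a median of 0.08, so that small changes passed the test too. Changes over 4-fold were seen in 270 genes that fell and 229 that rose, changes over 8-fold in 56 and 77, and changes over 16-fold in 14 and 29. A comparison of 2 against 2 libraries by exact permutation cannot give a p below 0.333, so the adjusted p-values rest on the spread that limma pools across genes.

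**Figure D1:**
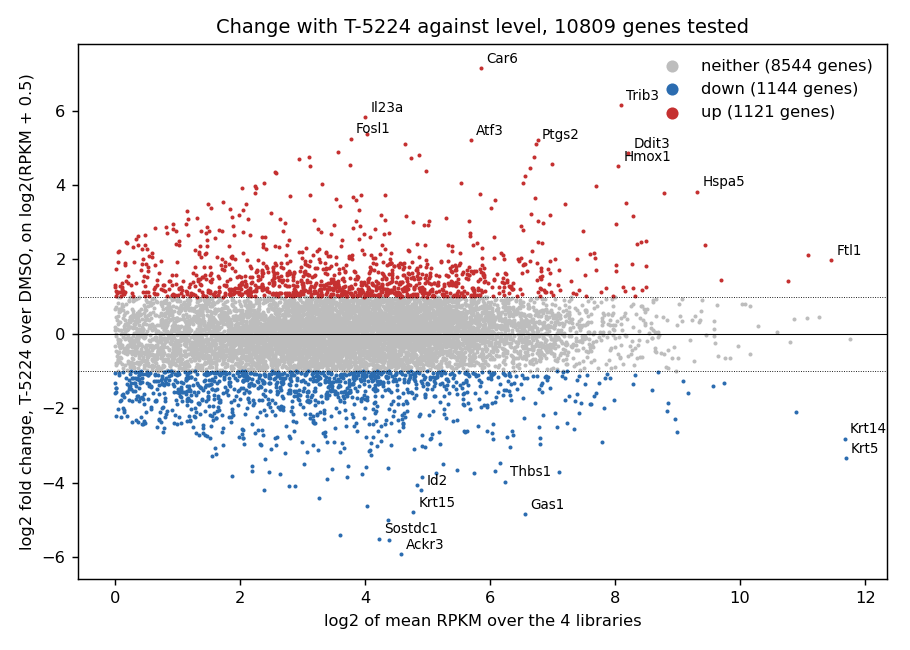
Each point is a gene tested. The horizontal axis gives the log2 of its mean RPKM over the 4 libraries and the vertical axis its log2 fold change with T-5224, with dotted lines at a log2 fold change of 1 in either direction; 1144 genes called down are blue and 1121 called up are red. Krt5 and Krt14, at the right edge of the plot, fell, and Ftl1 and Hspa5, also among the most abundant transcripts, rose.

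The 15 genes with the largest rise included secreted proteins and stress regulators. Car6, a secreted carbonic anhydrase (chr4:149561124-149575441 in NCBIM37), had 0.387 and 0.260 RPKM with DMSO and 118 and 113 RPKM with T-5224 (log2 fold change 7.14 ± 0.09 standard error, limma adjusted p = 2.73e-13). Trib3, a pseudokinase of the stress response, had 7.98 and 6.31 RPKM with DMSO and 548 and 531 RPKM with T-5224 (6.15, adjusted p = 4.52e-13, limma). Ptgs2, the inducible cyclooxygenase of prostaglandin synthesis, had 5.77 and 5.35 RPKM with DMSO and 212 and 205 RPKM with T-5224 (5.11). In all 3 genes both T-5224 libraries lay far above both DMSO libraries. Il23a, a cytokine subunit, reached 32.8 and 31.0 RPKM from 0.0920 and 0.0560 RPKM, the metalloreductase Steap1 215 and 209 RPKM from 5.53 and 4.99 RPKM, and the protein C receptor Procr 49.8 and 48.4 RPKM from 1.12 and 0.791 RPKM. The others of the 15 were Etv5, Fosl1, Atf3, Ddit3 and Nupr1, which are described with their pathways, and Acox2, Cox6a2, Angptl6 and 1810032O08Rik, with log2 fold changes from 4.73 to 4.89. Several of these genes lay under 1 RPKM in DMSO, where the added 0.5 makes the log2 fold change smaller than the ratio of the values.

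The 15 genes with the largest fall included a chemokine receptor, ligand antagonists and matrix proteins. Ackr3, a scavenger receptor for chemokines (chr1:92100555-92113326 in NCBIM37), had 46.2 and 48.2 RPKM with DMSO and 0.265 and 0.296 RPKM with T-5224 (log2 fold change −5.93 ± 0.08 standard error, limma adjusted p = 4.68e-13). Sostdc1, a secreted antagonist of BMP and Wnt ligands, had 36.1 and 37.7 RPKM with DMSO and 0.352 and 0.287 RPKM with T-5224 (−5.51). Gas1, a membrane co-receptor for Hedgehog ligands, had 174 and 191 RPKM with DMSO and 6.29 and 5.47 RPKM with T-5224 (−4.84). The T-5224 libraries lay far under the DMSO libraries for each of them. Adamtsl4 (−5.55) and Fbn2 (−4.09), both of the microfibril system, Prelp (−4.40) and Thbs1 (−3.98) encode proteins of the extracellular matrix. Abca1 (−4.19) exports cholesterol, Sdc3 (−4.07) is a heparan sulfate proteoglycan, Dclk1 (−4.10) is a microtubule-associated kinase, and Fam180a (−5.41), Tbc1d30 (−4.62), Krt15, Id2 and Ndufa4l2 complete the list. Ndufa4l2 was unlike the rest in its DMSO libraries, with 20.6 and 60.8 RPKM there and 0.703 and 0.524 RPKM with T-5224, and its log2 fold change of −5.02 lay between −5.79 and −4.25 when a library was left out, the smaller change being without the second DMSO library. In the separately normalized DMSO libraries of the SB431542 experiment Ndufa4l2 stood at 0.909 to 1.43 RPKM, not far above its T-5224 values here. The reason for its high DMSO level here was not tested.

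The most abundant transcripts of the cells changed places. Krt5, the type II keratin of basal keratinocytes (chr15:101537501-101543322 in NCBIM37), had 5916 and 6087 RPKM with DMSO and 599 and 579 RPKM with T-5224 (log2 fold change −3.35 ± 0.05 standard error, limma adjusted p = 1.06e-12) and was the highest gene of the DMSO libraries. Its partner Krt14 had 5468 and 5948 RPKM with DMSO and 826 and 791 RPKM with T-5224 (−2.82). By the mean of the T-5224 libraries the highest gene was the ferritin subunit Ftl1, which stores iron and had 1133 and 1130.2 RPKM with DMSO and 4589 and 4362 RPKM with T-5224 (1.98), followed by its partner Fth1, with 809 and 812 RPKM with DMSO and 3604 and 3484 RPKM with T-5224 (2.13), at a mean close to that of Rn45s. In the second T-5224 library Rn45s was above both. The keratins listed took 4.49% and 4.72% of the summed RPKM of the DMSO libraries and 0.657% and 0.641% of that of the T-5224 libraries. The genes of the integrated stress response took 0.132% and 0.134% with DMSO and 0.975% and 0.979% with T-5224. Among genes with a mean of at least 50 RPKM, the largest falls further held Spon2 (−3.72), Mxd4 (−3.73), Id3 (−3.69), Nrep (−3.47), Ehd2 (−3.05), Ucp2 (−2.97), Fxyd3 (−2.90) and Tnc (−2.83), and the largest rises Ppp1r15a (4.56), Hmox1 (4.51), Snhg12 (4.47), Gadd45a (4.25) and Stbd1 (4.04).

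**Figure D2:**
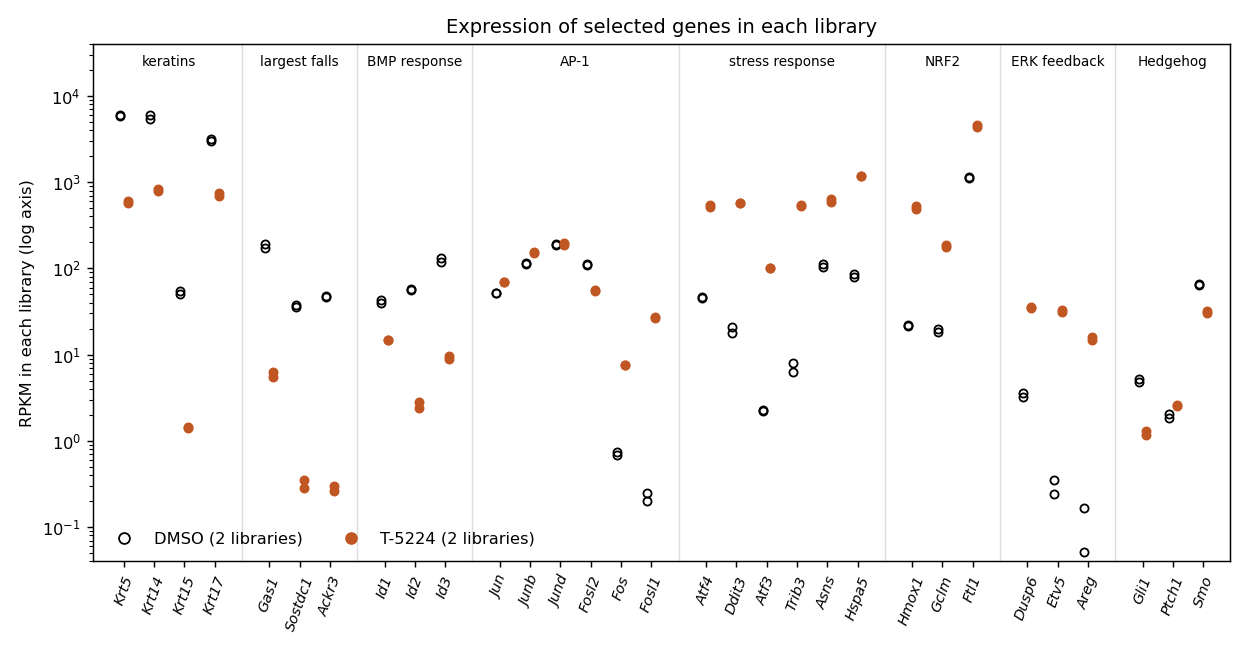
Each circle is the RPKM of a gene in a library on a log axis, open for the 2 DMSO libraries and filled for the 2 T-5224 libraries, with genes set out by group. The libraries of a group lie close together compared with the distance between the groups in all genes drawn but Jund, whose DMSO and T-5224 values overlap.

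The AP-1 subunits themselves did not move together. Jund, the most abundant, had 186 and 194 RPKM with DMSO and 199 and 189 RPKM with T-5224 (log2 fold change 0.03, adjusted p = 0.605, limma), and these values overlapped. Jun, with 51.3 and 51.9 RPKM with DMSO and 69.9 and 69.0 RPKM with T-5224, and Junb, with 111 and 115 RPKM with DMSO and 157 and 151 RPKM with T-5224, were higher by less than 2-fold (0.43 and 0.44). Fosl2, with the highest level of the Fos family in the DMSO libraries, had 109.8 and 113 RPKM with DMSO and 56.9 and 54.9 RPKM with T-5224 (−0.99), which is short of the 2-fold limit. Fosl1 (chr19:5447703-5455945 in NCBIM37) had 0.201 and 0.252 RPKM with DMSO and 26.7 and 27.5 RPKM with T-5224 (5.25 ± 0.09 standard error, limma adjusted p = 2.69e-12) and Fos 0.736 and 0.684 RPKM with DMSO and 7.61 and 7.57 RPKM with T-5224 (2.74). Of the 7 subunits, Fosb was too low to be tested (0.452 and 0.459 RPKM with DMSO and 0.566 and 0.497 RPKM with T-5224), and of the 6 tested 2 rose, 0 fell and 4 were within 2-fold. Among the bZIP partners, 6 of 10 rose and 2 fell. The stress-induced Atf3 had 2.26 and 2.24 RPKM with DMSO and 101 and 101 RPKM with T-5224 (5.20) and Batf3 rose (2.56), whereas the large MAF protein Maf (22.8 and 21.8 RPKM with DMSO and 2.56 and 2.41 RPKM with T-5224, −2.93) fell.

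Textbook targets of AP-1 moved in both directions as well. Of 13 tested, 5 fell and 4 rose, with a median log2 fold change of −0.18 beside 0.003 over all genes tested. The matrix metalloproteinases Mmp3 (8.76 and 9.59 RPKM with DMSO and 1.99 and 2.0 RPKM with T-5224, −1.96) and Mmp10 (4.57 and 5.45 RPKM with DMSO and 0.702 and 1.21 RPKM with T-5224, −1.94) fell, and they lie with Mmp12 and Mmp13 in a run of 4 genes that follow each other among the genes tested on chromosome 9 (NCBIM37 7272514 to 7510238) that were all down, Mmp13 only with both the second DMSO and the first T-5224 library in the fit (log2 fold change −0.87 and −0.95 without them). Plaur, the receptor of urokinase, rose from 0.331 and 0.219 RPKM to 16.6 and 17.7 RPKM (4.51), and the secreted phosphoprotein Spp1 from 1.95 and 1.48 RPKM to 28.4 and 29.3 RPKM (3.73). The separately normalized DMSO libraries of the SB431542 experiment list Mmp3 at 0.463 to 0.987 RPKM and Mmp10 at 0.633 to 0.683 RPKM. Both are under the T-5224 levels here. Plaur (2.13 to 2.53 RPKM) and Spp1 (7.24 to 8.45 RPKM) lay there between the DMSO and T-5224 levels here. The reason for the differing DMSO levels was not tested. The 250 bases before the start of Plaur, Mmp3 and Mmp10 are shown because all 3 hold the AP-1 motif TGACTCA on one strand or the other, while the genes changed in opposite directions; the motif is in capitals. They come from the RefSeq promoter table of GRCm38.p6, are written 5′ to 3′ on the strand of the gene, and were placed in NCBIM37 by exact match, at chr7:25247252-25247501 for Plaur (+ strand), chr9:7445572-7445821 for Mmp3 (+ strand) and chr9:7502092-7502341 for Mmp10 (+ strand). Counted from the start, the first base of the motif is at −69, −46 and −63.
Plaur: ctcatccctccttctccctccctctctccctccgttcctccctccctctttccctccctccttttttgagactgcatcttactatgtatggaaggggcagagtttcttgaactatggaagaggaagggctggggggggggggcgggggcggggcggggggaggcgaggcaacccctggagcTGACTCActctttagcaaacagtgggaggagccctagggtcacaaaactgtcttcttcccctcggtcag
Mmp3: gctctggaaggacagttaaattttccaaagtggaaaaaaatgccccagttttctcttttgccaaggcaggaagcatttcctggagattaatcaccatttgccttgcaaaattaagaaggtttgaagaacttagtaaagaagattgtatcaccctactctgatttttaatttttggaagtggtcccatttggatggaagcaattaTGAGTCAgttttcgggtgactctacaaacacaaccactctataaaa
Mmp10: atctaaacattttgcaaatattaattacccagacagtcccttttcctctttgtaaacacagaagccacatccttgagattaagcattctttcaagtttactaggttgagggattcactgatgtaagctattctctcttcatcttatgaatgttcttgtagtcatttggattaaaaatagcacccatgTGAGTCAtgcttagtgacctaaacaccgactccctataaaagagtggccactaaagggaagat

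Few promoters held the AP-1 motif, among called genes and among all genes tested. The reference table held a 300-base window (250 bases before to 50 after the start) for 8454 of the 10809 genes tested, and for 832 of the genes down and 874 of the genes up. Read on both strands, TGACTCA was in 4.45% of the windows of genes down and in 4.46% of those of genes up, beside 3.42% of all genes tested and 5.2% of all windows in the table. The cyclic AMP response element TGACGTCA was in 2.04% and 4.35% of the windows of genes down and up, beside 3.64% of all genes tested and 1.79% of all windows. The composite C/EBP-ATF element TGATGCAA, which ATF4 and C/EBP dimers are known to bind, was in 0.240% of the windows of genes down and in 2.40% of those of genes up, beside 0.556% of all genes tested and 0.895% of all windows. The antioxidant response core TGACNNNGC, whose letters can overlap TGACTCA, was in 13.1% and 17.4%, beside 15.1% of all genes tested and 12.4% of all windows. The E2F site TTTGGCGC was in 0.841% and 1.72%, beside 1.11% of all genes tested and 0.514% of all windows. Since fewer than 80% of the genes down and up had a window, a comparison of these shares is void and they stand as descriptions. These are matches of letters in a short window, and binding was not measured here.

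Keratins, the intermediate filaments of keratinocytes, were lower. Of the 8 keratins tested, 7 fell and 0 rose, with a median log2 fold change of −2.50, which was −0.76 when keratins of lower level were let in with no filter. The hair follicle stem cell keratin Krt15 had 50.8 and 55.1 RPKM with DMSO and 1.44 and 1.40 RPKM with T-5224 (−4.80, adjusted p = 9.55e-13, limma) and Krt16, of activated epidermis, 141 and 147 RPKM with DMSO and 22.6 and 20.6 RPKM with T-5224 (−2.71). The calls extend beyond this list to neighbours in both keratin gene clusters. The 6 type I genes from Krt13 to Krt42 on chromosome 11 (NCBIM37 99978641 to 100131185) were down and follow each other among the genes tested, with log2 fold changes from −4.80 to −1.40, and so were the 5 type II genes from Krt90 to Krt5 on chromosome 15 (101382787 to 101543322), from −3.35 to −1.69. Krt6a and Krt6b are near-identical copies, so their reads may be split between them. In hemidesmosomes and basement membrane, which anchor basal cells, 3 of 16 genes fell and 0 rose, namely Dst (−2.39), Col17a1 (−1.86) and Itga6 (−1.08). In desmosomes and adherens junctions 6 of 15 fell and 1 rose. Ctnnb1, which encodes ß-catenin, had 308 and 306 RPKM with DMSO and 127 and 121 RPKM with T-5224 (−1.31), Dsg1a (−1.75) and Pkp1 (−1.24) fell too, and Pkp2 rose (1.29).

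Most differentiation genes fell, and among epidermal regulators every call was a fall. Of 11 differentiation genes 7 fell and 3 rose. Ly6d had 16.3 and 20.4 RPKM with DMSO and 2.35 and 2.19 RPKM with T-5224 (−2.76) and Lypd3 77.5 and 79.5 RPKM with DMSO and 20.7 and 22.1 RPKM with T-5224 (−1.85), both surface proteins that the study follows in tumors. Ly6d stood at 2.07 to 2.51 RPKM in the separately normalized DMSO libraries of the SB431542 experiment, close to its T-5224 level here. Lypd3 stood at 44.2 to 48.5 RPKM there, above its T-5224 level. The reason for the higher DMSO levels here was not tested. Calml3 (−2.63) and Sbsn (−2.51) also fell, and the corneodesmosome protein Cdsn rose (2.65). Of 17 epidermal and hair follicle transcription factors 6 fell and 0 rose. Hoxc13 (−2.40), Sox9 (123 and 128 RPKM with DMSO and 36.6 and 35.9 RPKM with T-5224, −1.77), Sox2 (−1.57) and Nfib (−1.20) had the largest falls. Trp63, the regulator of the basal epidermal state, had 73.6 and 76.2 RPKM with DMSO and 50.3 and 48.7 RPKM with T-5224 (−0.59) and stayed within 2-fold.

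The extracellular matrix list had 8 of 13 genes down and 1 up, with a median log2 fold change of −1.49 that became −0.09 with no filter on low values. Thbs1, a matricellular glycoprotein and activator of latent TGFß, had 141 and 144 RPKM with DMSO and 8.39 and 8.72 RPKM with T-5224 (−3.98 ± 0.06 standard error, limma adjusted p = 4.68e-13). Tnc (114 and 119 RPKM with DMSO and 15.7 and 16.3 RPKM with T-5224, −2.83), Col8a1 (−2.80) and Fbln2 (−2.17) fell, and fibronectin, Fn1, rose (107 and 106 RPKM with DMSO and 222 and 229.6 RPKM with T-5224, 1.08). The single called gene of the 3 tested for epithelial-mesenchymal transition was the N-cadherin gene Cdh2, which fell (53.6 and 51.5 RPKM with DMSO and 7.68 and 7.32 RPKM with T-5224, −2.73).

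The Hedgehog pathway, which drives BCC, was lower at several steps. Of 10 genes tested 4 fell and 0 rose, with a median log2 fold change of −0.88. Gas1 is given above. The target gene Gli1 (chr10:126766945-126778645 in NCBIM37) had 5.16 and 4.88 RPKM with DMSO and 1.18 and 1.31 RPKM with T-5224 (−1.66 ± 0.11 standard error, limma adjusted p = 5.21e-08), the transducer Smo 64.2 and 66.8 RPKM with DMSO and 32.4 and 30.3 RPKM with T-5224 (−1.05) and the transcription factor Gli2 2.77 and 2.95 RPKM with DMSO and 1.14 and 1.16 RPKM with T-5224 (−1.02). Gli2 was close to the 2-fold limit and had a log2 fold change of −0.98 without the second DMSO library. Ptch1, the receptor and also a target gene of the pathway, had 2.03 and 1.86 RPKM with DMSO and 2.62 and 2.56 RPKM with T-5224 (0.34, adjusted p = 0.0126, limma), so that it was higher while Gli1 was lower. The copy of Ptch1 that ASZ001 carries was not examined here.

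Targets and regulators of BMP signaling were lower. Of 13 genes 9 fell and 0 rose, with a median log2 fold change of −1.92. The Id genes encode inhibitors of helix-loop-helix factors and are direct BMP targets. Id2 had 58.0 and 56.1 RPKM with DMSO and 2.38 and 2.85 RPKM with T-5224 (−4.21, adjusted p = 4.40e-12, limma) and Id3 119.6 and 131 RPKM with DMSO and 9.68 and 8.80 RPKM with T-5224 (−3.69), and the pseudoreceptor Bambi fell too (−2.68). Among TGFß targets and ligands 9 of 24 fell and 3 rose. The ligand Tgfb2 had 25.9 and 24.2 RPKM with DMSO and 1.33 and 1.21 RPKM with T-5224 (−3.85), Ctgf 13.9 and 15.4 RPKM with DMSO and 2.53 and 2.80 RPKM with T-5224 (−2.26) and Tgfbi 299 and 320.1 RPKM with DMSO and 82.0 and 83.3 RPKM with T-5224 (−1.90). The receptors Tgfbr1 (0.03) and Tgfbr2 (0.05) and the signal transducer Smad2 (0.03) had adjusted p-values over 0.05 (limma).

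In the Wnt pathway 6 of 10 genes fell and 0 rose. The secreted antagonist Sfrp1 had 24.2 and 25.7 RPKM with DMSO and 1.71 and 1.64 RPKM with T-5224 (−3.55), the R-spondin receptor Lgr4 112 and 114 RPKM with DMSO and 17.8 and 16.8 RPKM with T-5224 (−2.67), and the nuclear partners of ß-catenin Tcf7l1 (−2.49) and Lef1 (−1.60) fell. In the Notch pathway 3 of 10 fell and 1 rose. Lfng (34.3 and 33.8 RPKM with DMSO and 5.91 and 6.01 RPKM with T-5224, −2.42), the ligand Dll1 (−1.72) and the target Hey1 (−1.48) fell, and the receptor Notch3 rose (1.74 and 1.88 RPKM with DMSO and 12.3 and 11.2 RPKM with T-5224, 2.40).

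Cytoskeletal targets of MRTF and SRF, the transcription factor pair that the study links to resistant BCC, had 6 of 20 genes down and 1 up (median −0.57). The actins Actg1 (169.7 and 162 RPKM with DMSO and 45.5 and 45.0 RPKM with T-5224, −1.86) and Actb (1092 and 1113 RPKM with DMSO and 409 and 429.9 RPKM with T-5224, −1.39), tropomyosin Tpm1 (−1.67) and the actin-binding Lima1 (−1.59) fell. Actb and Actg1 have many processed copies, whose reads may have been counted with or apart from them, and Actg1 has a far higher level in the separately normalized SB431542 table. The MRTF signature genes of the study are SRF target genes by ChIP-seq that also changed with another inhibitor. By matching symbols 1053 could be tested, of which 154 (14.6%) were down and 239 (22.7%) up, with a median of 0.29. The study describes the list both as genes changed either way and as genes lowered by that inhibitor. The median can therefore not be read as MRTF activity. That list was not chosen on these libraries. Among YAP/TAZ targets 7 of 16 fell and 0 rose, with Ctgf, Ajuba (−1.57), the receptor kinase Axl (−1.26) and Crim1 (−1.22) lowest. The RhoGEF Arhgef17 had 11.7 and 12.6 RPKM with DMSO and 3.96 and 3.79 RPKM with T-5224 (−1.54), and RhoA, the GTPase it activates, 97.9 and 91.5 RPKM with DMSO and 89.3 and 83.9 RPKM with T-5224 (−0.13, adjusted p = 0.0576, limma).

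The integrated stress response had the highest median of the 49 gene lists, 3.13. In this response, kinases that phosphorylate eIF2α slow protein synthesis while the transcription factor ATF4 and its partner CHOP, encoded by Ddit3, turn on a common set of genes. Of 20 genes tested 14 rose and 2 fell. Ddit3 (chr10:126727830-126733344 in NCBIM37) had 18.0 and 20.9 RPKM with DMSO and 570.3 and 577 RPKM with T-5224 (4.85 ± 0.07 standard error, limma adjusted p = 3.98e-13) and the chromatin regulator Nupr1 7.23 and 6.91 RPKM with DMSO and 206 and 198 RPKM with T-5224 (4.74). For both genes the T-5224 values lay well above the DMSO values. The glutathione-degrading enzyme Chac1 rose from 8.30 and 6.60 RPKM to 110.3 and 104 RPKM (3.77), and the stress hormones Fgf21 (4.55) and Gdf15 (4.36) rose from under 1 RPKM. Atf4 had 45.2 and 47.1 RPKM with DMSO and 545 and 521 RPKM with T-5224 (3.52) and Ppp1r15a, which directs eIF2α phosphatase, 9.50 and 10.2 RPKM with DMSO and 243 and 245 RPKM with T-5224 (4.56). Of the kinase genes, Eif2ak3, which encodes PERK, had 13.7 and 14.5 RPKM with DMSO and 14.9 and 13.8 RPKM with T-5224 (0.03, adjusted p = 0.725, limma) and Eif2ak2, which encodes the interferon-induced kinase PKR, fell (10.7 and 12 RPKM with DMSO and 3.63 and 2.83 RPKM with T-5224, −1.68). The 250 bases before the start of Atf3 and Nupr1 are shown as examples of the C/EBP-ATF element, in capitals, which here reads TTGCATCA since it lies on the other strand. They are from the same RefSeq table, matched to NCBIM37 at chr1:193007213-193007462 (Atf3, − strand) and chr7:133768985-133769234 (Nupr1, − strand), and in both the first base of the element is at −110 from the start. Of 19 windows of the list, 4 hold it, those of Atf3, Chac1, Fgf21 and Nupr1.
Atf3: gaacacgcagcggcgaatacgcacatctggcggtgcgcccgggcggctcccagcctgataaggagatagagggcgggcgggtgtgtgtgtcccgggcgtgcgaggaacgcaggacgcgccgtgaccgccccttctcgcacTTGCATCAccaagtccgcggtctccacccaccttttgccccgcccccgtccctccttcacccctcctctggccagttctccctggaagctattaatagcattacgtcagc
Nupr1: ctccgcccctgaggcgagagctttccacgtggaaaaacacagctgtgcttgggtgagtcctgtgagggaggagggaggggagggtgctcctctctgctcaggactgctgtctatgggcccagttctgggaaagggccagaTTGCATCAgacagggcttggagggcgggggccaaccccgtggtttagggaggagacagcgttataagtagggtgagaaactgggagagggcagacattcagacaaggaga

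Genes that supply amino acids were higher as well. In amino acid and one-carbon synthesis 12 of 18 genes rose and 1 fell. The mitochondrial folate enzymes Aldh1l2 (5.08 and 4.63 RPKM with DMSO and 89.4 and 87.4 RPKM with T-5224, 4.06) and Mthfd2 (25.7 and 21.7 RPKM with DMSO and 274 and 264 RPKM with T-5224, 3.48), the serine enzyme Psph (3.21) and the proline enzyme Pycr1 (3.18) had the largest rises, and Asns, the asparagine synthetase, reached 632 and 591 RPKM from 112 and 102 RPKM. Cbs fell (4.86 and 4.88 RPKM with DMSO and 1.10 and 1.12 RPKM with T-5224, −1.74). Of the amino acid transporters 7 of 12 rose and 0 fell. The 2 chains of the leucine exchanger, Slc7a5 (26.3 and 22.2 RPKM with DMSO and 393 and 385 RPKM with T-5224, 3.98) and Slc3a2 (105 and 103 RPKM with DMSO and 595 and 568 RPKM with T-5224, 2.47), rose, as did the glycine carrier Slc6a9 (3.64) and the cystine carrier Slc7a11 (2.25).

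Aminoacyl-tRNA synthetases charge tRNAs with amino acids, and for most but not all amino acids the cytosolic and the mitochondrial enzyme have separate genes. Of the 20 cytosolic enzymes 14 rose and 0 fell, with a median log2 fold change of 1.54. Wars, for tryptophan, had 19.2 and 19.7 RPKM with DMSO and 98.6 and 96.5 RPKM with T-5224 (2.30), and Nars (2.04), Vars (2.02) and Gars (1.86) followed. Of the 17 mitochondrial enzymes with a gene of their own 0 rose and 0 fell at the 2-fold limit, with a median of 0.19, although 8 passed the adjusted p of limma as higher and 3 as lower. Their largest values were Ears2 (1.0) and Aars2 (−0.87). Lars2 had 216 and 243 RPKM with DMSO and 147 and 406 RPKM with T-5224, and like Rn45s it was lowest in the first T-5224 library and highest in the second.

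**Figure D3:**
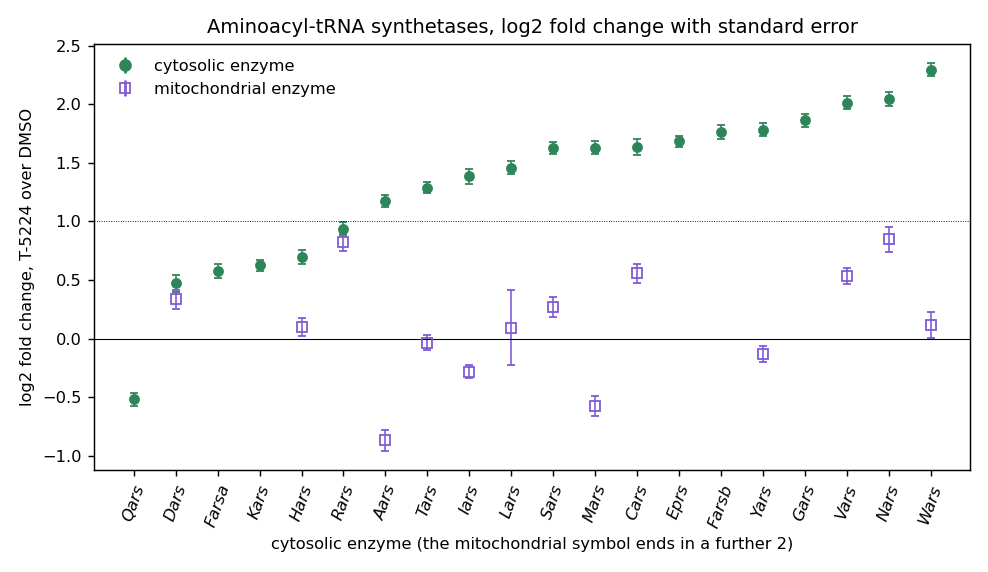
The vertical axis gives the log2 fold change with T-5224 and the bars its standard error from limma. Filled circles are the 20 cytosolic synthetases, in order of their change, and open squares the mitochondrial enzymes for the same amino acids, of which Ears2, Fars2 and Pars2 have no cytosolic partner of the same name and are not drawn. The dotted line marks 2-fold, with 14 cytosolic and 0 mitochondrial enzymes called above it.

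Protein folding genes of the endoplasmic reticulum (ER) and the cytosol were higher. Of 21 ER chaperones and unfolded protein response genes 13 rose and 0 fell, with a median log2 fold change of 1.20. The main ER chaperone Hspa5 had 86.8 and 80.1 RPKM with DMSO and 1193 and 1187 RPKM with T-5224 (3.83 ± 0.05 standard error, limma adjusted p = 4.68e-13), Herpud1 of ER-associated degradation 21.8 and 19.8 RPKM with DMSO and 162 and 157 RPKM with T-5224 (2.90), and Manf (2.17) and the transcription factor Xbp1 (2.16) rose. In the cytosol 6 of 14 heat shock genes rose and 0 fell. Hsp90aa1 (36.0 and 33.0 RPKM with DMSO and 140.5 and 138 RPKM with T-5224, 2.0), Hspa8 (1.51) and Hsph1 (1.49) were among them, and Hspa1a (1.78) shares reads with its near-identical copy Hspa1b. Hsp90aa1 and Hspa8 are uncertain too, as the DMSO libraries of the SB431542 experiment, normalized separately, list them at 242 to 252 RPKM and 927 to 1053 RPKM, far above 36.0 and 33.0 RPKM and 38.8 and 37.2 RPKM here, and the reason was not tested.

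Targets of NRF2, the regulator of the oxidative stress response, had 13 of 24 genes up and 1 down, with a median of 1.31. Heme oxygenase, Hmox1 (chr8:77617490-77624495 in NCBIM37), had 22.2 and 21.5 RPKM with DMSO and 534 and 482 RPKM with T-5224 (4.51 ± 0.06 standard error, limma adjusted p = 3.94e-13). The glutathione synthesis subunit Gclm had 20.1 and 18.4 RPKM with DMSO and 187 and 178 RPKM with T-5224 (3.21), Osgin1 0.587 and 0.840 RPKM with DMSO and 19.4 and 19.0 RPKM with T-5224 (4.03) and the sulfiredoxin Srxn1 22.1 and 24.1 RPKM with DMSO and 193 and 196 RPKM with T-5224 (3.05). Thioredoxin, Txn1, fell (785 and 752 RPKM with DMSO and 321 and 316 RPKM with T-5224, −1.27). The 250 bases before the start of Gclm (chr3:121948225-121948474 in NCBIM37, + strand, RefSeq table of GRCm38.p6) are shown as the called member of this list with the largest change whose window holds the antioxidant response core before the start, in capitals. It is read there as GCACCGTCA, on the other strand, with its first base at −134 from the start. Of 20 windows of the list 7 hold the core.
Gclm: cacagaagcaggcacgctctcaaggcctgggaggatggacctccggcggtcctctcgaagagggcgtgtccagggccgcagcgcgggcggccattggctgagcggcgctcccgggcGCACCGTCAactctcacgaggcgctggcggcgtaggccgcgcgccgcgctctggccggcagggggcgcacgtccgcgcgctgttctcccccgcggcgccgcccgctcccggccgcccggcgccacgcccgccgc

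Feedback genes of the ERK MAP kinase cascade were higher. Of 14 tested 12 rose and 0 fell, with a median log2 fold change of 2.46. The ETS factor Etv5 had 0.350 and 0.245 RPKM with DMSO and 31.4 and 33.1 RPKM with T-5224 (5.36, adjusted p = 2.86e-12, limma), the phosphatases Dusp6 3.56 and 3.23 RPKM with DMSO and 34.5 and 35.4 RPKM with T-5224 (3.19) and Dusp4 0.294 and 0.386 RPKM with DMSO and 8.68 and 7.18 RPKM with T-5224 (3.32), and the growth factor Areg 0.0510 and 0.167 RPKM with DMSO and 15.9 and 14.9 RPKM with T-5224 (4.71). DMSO levels were higher in the SB431542 experiment, normalized separately, though under the T-5224 levels here. They were 19.2 to 21.1 RPKM for Dusp6, 2.29 to 2.93 for Etv5, 0.757 to 0.976 for Dusp4 and 0.619 to 1.02 for Areg. The reason for the low DMSO levels here was not tested. Among EGF receptors and ligands 4 of 8 rose, all of them ligands, and 1 fell. Epgn (2.57 and 2.19 RPKM with DMSO and 36.6 and 38.2 RPKM with T-5224, 3.72), Tgfa (1.22) and Hbegf (1.18) were the other ligands, and the receptor Erbb2 fell (37.5 and 38.7 RPKM with DMSO and 16.9 and 16.9 RPKM with T-5224, −1.15). Those other DMSO libraries list Epgn at 12.6 to 14.9 RPKM and Tgfa at 7.59 to 8.54 RPKM, again between the levels here. Hbegf, at 3.20 to 3.93 RPKM there, was not under its T-5224 level.

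Inflammatory genes were mostly up and interferon genes mostly down. In the list of NF-kB feedback genes and cytokines 10 of 14 rose and 0 fell, with a median of 1.5. Beside Il23a, the chemokines Cxcl1 (1.35 and 2.35 RPKM with DMSO and 29.9 and 24.5 RPKM with T-5224, 3.59) and Ccl20 (3.09) and the cytokine Lif (1.78 and 1.49 RPKM with DMSO and 22.1 and 22.9 RPKM with T-5224, 3.43) rose. In the separately normalized DMSO libraries of the SB431542 experiment Cxcl1 stood at 11.1 to 22.1, Ccl20 at 3.0 to 4.84 and Lif at 3.27 to 4.01 RPKM. These levels lie between the DMSO and T-5224 levels here. Of 20 interferon-stimulated genes 15 fell and 3 rose, with a median of −1.52. Xaf1 (14.3 and 14.5 RPKM with DMSO and 1.44 and 1.57 RPKM with T-5224, −2.90), Usp18 (−2.80) and the ubiquitin-like Isg15 (13.7 and 17.9 RPKM with DMSO and 2.76 and 2.43 RPKM with T-5224, −2.39) fell. These genes varied among the DMSO libraries of the SB431542 experiment. Xaf1 ranged there from 3.29 to 9.11, Usp18 from 1.21 to 7.22 and Isg15 from 3.19 to 13.3 RPKM. The lowest of these values was close to the T-5224 level here for Usp18 and Isg15 and above it for Xaf1. The reason was not tested. The 3 that rose were Irf1 (1.08), Mx2 (1.22) and Cxcl10 (1.77). In class I antigen presentation 1 of 8 genes fell (Tapbp, −1.33) and 0 rose.

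Genes of mitosis and part of those of DNA replication were higher. Of 24 mitosis genes 17 rose, 0 fell and all 24 passed the adjusted p of limma as higher, with a median log2 fold change of 1.14. The kinases Aurkb (9.85 and 8.73 RPKM with DMSO and 31.0 and 28.2 RPKM with T-5224, 1.62) and Aurka (1.51), the checkpoint target Cdc20 (1.58) and the cytokinesis factor Ect2 (1.47) had the largest rises. In DNA replication 7 of 28 rose and 1 fell, with Cdt1 (6.57 and 6.60 RPKM with DMSO and 31.1 and 31.0 RPKM with T-5224, 2.15) and Mcm2 (1.51), of origin licensing, and Cdc45 (1.69) and Mcm10 (1.53), of origin firing, highest. Of 16 G1 cyclins and CDK inhibitors 1 fell, the inhibitor Cdkn1b (56.9 and 51.1 RPKM with DMSO and 21.7 and 20.9 RPKM with T-5224, −1.32), and 0 rose. Of 23 ribosome biogenesis genes 12 rose and 0 fell, with Rrp9 (1.59), Gnl3 (1.47) and Nop58 (1.40) highest. The DMSO libraries of the SB431542 experiment, normalized separately, list Aurkb at 33.3 to 47.3 RPKM and Mcm2 at 58.4 to 65.2 RPKM. Mcm2 had 13.5 and 12.6 RPKM with DMSO and 39.4 and 36.9 RPKM with T-5224 here. The T-5224 levels of Aurkb and Mcm2 thus lay under those other controls, and those of Cdt1 just above them (24.2 to 30.7 RPKM). The reason for the low DMSO levels here was not tested. Shares of cycling cells were not measured in these libraries.

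Calls among p53 targets went both ways. Of 17 p53 targets 5 fell and 4 rose, and their median of −0.02 changed sign with no filter on low values (0.10) and with quantile normalization and was −0.72 over genes with a mean of at least 5 RPKM. Trp53inp1 fell (32.6 and 28.6 RPKM with DMSO and 3.19 and 2.97 RPKM with T-5224, −3.12) and Sesn1 too (−2.15), whereas the death receptor Fas rose (0.420 and 0.308 RPKM with DMSO and 5.19 and 5.08 RPKM with T-5224, 2.71), as did Plk2 (1.38). In the BCL2 family 2 of 13 fell and 0 rose. Bmf, a pro-death member, had 10.2 and 11.1 RPKM with DMSO and 0.34 and 0.364 RPKM with T-5224 (−3.71), and the pro-survival Mcl1 69.2 and 68.8 RPKM with DMSO and 29.0 and 29.0 RPKM with T-5224 (−1.24).

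Glycolysis genes were mostly lower. Of 16 glycolysis genes 4 fell and 0 rose, and 15 passed the adjusted p of limma as lower. Lactate dehydrogenase Ldha had 808 and 913 RPKM with DMSO and 285 and 281 RPKM with T-5224 (−1.60), the glucose transporter Slc2a1 561 and 585 RPKM with DMSO and 205 and 195 RPKM with T-5224 (−1.51), and Gpi1 (−1.34) and Pfkl (−1.05) fell as well, Pfkl short of the 2-fold limit without the second DMSO library (−0.98). Slc2a1 stood at only 123 to 126 RPKM in the separately normalized DMSO libraries of the SB431542 experiment, under its T-5224 level here. Pfkl (43.4 to 50.3 RPKM) was there close to its T-5224 level. Ldha (568 to 677 RPKM) and Gpi1 (121 to 141 RPKM) were there well above theirs. The reason for these differences in DMSO levels was not tested. Of 12 targets of hypoxia-inducible factor (HIF) 6 fell and 1 rose, with Ndufa4l2, the prolyl hydroxylase Egln3 (21.9 and 22.3 RPKM with DMSO and 1.87 and 2.17 RPKM with T-5224, −3.17), Ankrd37 (−2.81) and Bnip3 (−2.42) lowest and Vegfa, the vascular growth factor, higher (43.5 and 39.6 RPKM with DMSO and 109 and 105 RPKM with T-5224, 1.36). Those other DMSO libraries list Egln3 at 4.93 to 5.21, Ankrd37 at 1.31 to 1.72 and Bnip3 at 16.4 to 17.0 RPKM. These levels are under the DMSO levels here and above the T-5224 levels. In sterol synthesis 2 of 20 fell and 2 rose, and in fatty acid synthesis 1 of 11 rose (Acacb, 1.25) and 0 fell. Of 76 nuclear-encoded subunits of oxidative phosphorylation 5 fell and 2 rose, and their median of 0.02 changed sign under quantile normalization, when libraries were scaled to the same sum and when some single libraries were left out. Cox6a2, the muscle form of a cytochrome oxidase subunit, rose from 0.189 and 0.116 RPKM to 18.1 and 16.0 RPKM (4.75).

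Among lysosome and autophagy genes 5 of 25 fell and 2 rose. The autophagy receptor Sqstm1 had 218 and 223 RPKM with DMSO and 1186 and 1136 RPKM with T-5224 (2.39), and the initiating kinase Ulk1 52.6 and 57.9 RPKM with DMSO and 13.1 and 12.1 RPKM with T-5224 (−2.09). Cytosolic ribosomal proteins were mostly higher by less than 2-fold, with 58 of 76 passing the adjusted p of limma as higher and 5 as lower, 6 up and 0 down, and a median of 0.60. The 4 largest rises were Rpl10a (3.03), Rpl12 (2.54), Rpl11 (2.20) and Rps27 (1.89), whose listed levels of 6.35 and 7.06, 3.89 and 4.17, 1.74 and 3.49 and 3.58 and 2.87 RPKM with DMSO lie far under those of the DMSO libraries of the SB431542 experiment (at least 296 RPKM for each, in a table normalized separately). They have many near-identical copies, and these values are uncertain. Of 36 proteasome subunits 2 rose and 0 fell, and of 12 housekeeping genes 1 rose and 1 fell (Actb).

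**Figure D4:**
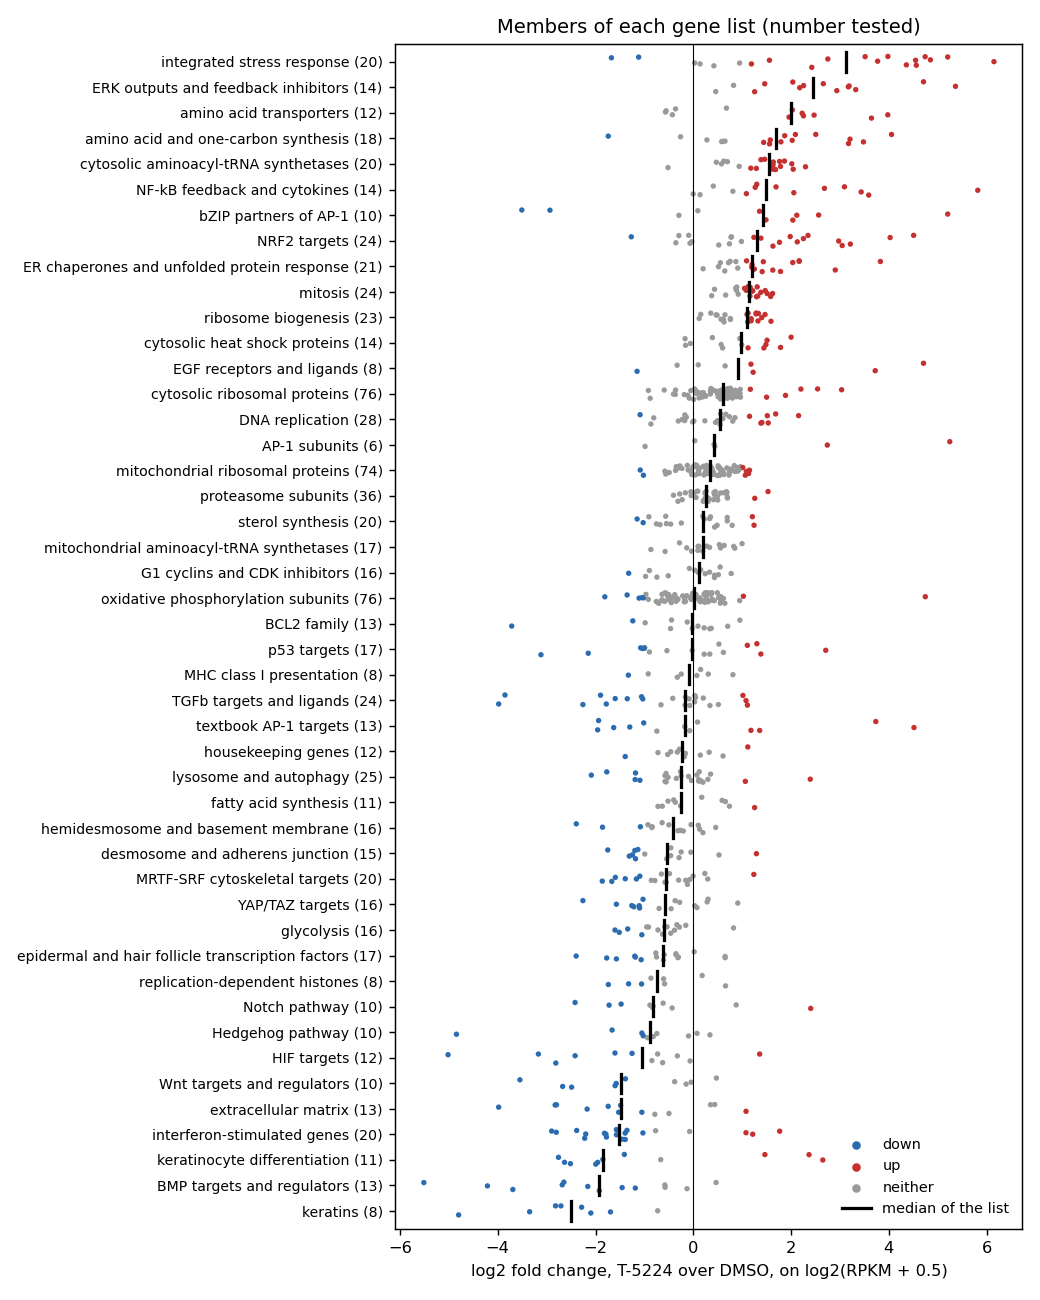
Each point is a member of a gene list, placed by its log2 fold change with T-5224, blue where it was called down, red where called up and grey otherwise. Black bars are the medians, which, with the filter on low values, order the lists from keratins (−2.50) at the bottom to the integrated stress response (3.13) at the top, and the number tested stands after each name. The epithelial-mesenchymal transition, complement and MRTF signature lists are not drawn.

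The responses to the 2 inhibitors were compared gene by gene, with each effect taken against its own DMSO libraries and the difference of the effects tested in limma over 10462 genes. The doses, the agents and the numbers of libraries differ between the experiments, and no control libraries are shared. The DMSO levels differ too. Gas1 had 174 and 191 RPKM here and 40.4 to 52.8 RPKM there, and Sostdc1 36.1 and 37.7 RPKM and 9.31 to 9.63 RPKM. Trp73 was closer, with 6.64 and 7.85 RPKM and 5.17 to 5.90 RPKM. Differences between the inhibitors and between the control cells or tables cannot be told apart. The difference was over 2-fold with an adjusted p under 0.05 in 1732 genes, or 16.6%, of which 862 were higher and 870 lower with T-5224. Of the 1070 genes down with T-5224 that were tested in both tables, 773 differed from SB431542 in the same direction, and of the 1021 genes up, 755. These genes were chosen for their change in the same T-5224 libraries, while only 63 of 10842 genes were down and 25 up with SB431542. A difference in the same direction was close to fixed by that choice, so these counts are no support for distinct responses. The stress genes Nupr1 (difference 5.86, standard error 0.23, adjusted p = 1.74e-08, limma), Trib3 (5.54), Atf3 (5.32) and Ptgs2 (5.15) led the higher genes. Nupr1 and Bpifc fell with SB431542 (−1.11 and −1.33) and rose with T-5224 (4.74 and 3.60). Among the lower genes were Sostdc1 (−5.43), Krt15 (−5.29), Gas1 (−4.80), Adamtsl4 (−4.63), Id2 (−4.62), Trp73 (−4.21) and Igfbp5 (−3.92). Id2 and Id3 had log2 fold changes of 0.41 and 0.55 with SB431542. Gli1 differed by −1.06 (adjusted p = 1.28e-04, limma).

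Some genes that fell or rose with both inhibitors still differed in size. Ackr3 had a log2 fold change of −5.93 with T-5224 and −2.15 with SB431542 (difference −3.78, adjusted p = 9.57e-09, limma), and Etv5 had 5.36 and 2.29 (difference 3.07). For the TGFß target Pmepa1 the change with SB431542 was the larger one, with −3.62 for SB431542 and −1.35 for T-5224 (difference 2.27, adjusted p = 3.33e-08, limma). Ctgf had −2.31 and −2.26, a difference of 0.05 with an adjusted p of 0.738 (limma).

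**Figure D5:**
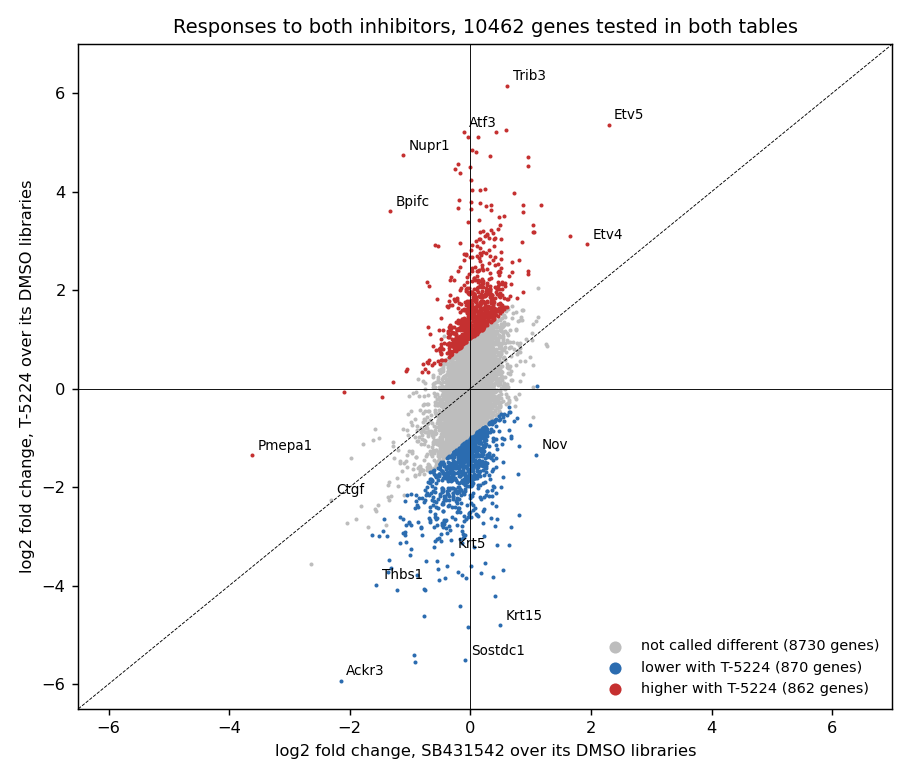
Each point is a gene tested in both tables, placed by its log2 fold change with SB431542 (horizontal axis) and with T-5224 (vertical axis); the dashed line marks equal change. Colored points are the 862 genes called higher (red) and the 870 called lower (blue) with T-5224 in the test of the difference, and the cloud is taller than it is wide, with an interquartile range of 1.003 for T-5224 and 0.283 for SB431542.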

How the data were processed

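RNA was extracted from ASZ001 cells treated for 24 h with 20 µM T-5224 or DMSO, and libraries were made with a stranded mRNA kit. According to the study's methods, reads were aligned to the mouse genome (mm9, NCBIM37) with TopHat and quantified with HOMER, with versions listed in its reporting summary and not repeated here. The deposited tables hold RPKM values as made by the authors, with no counts, and whether counting used strand is not stated, so that overlapping and antisense genes cannot be told apart. Genes with near-identical copies, among them ribosomal protein, ferritin, actin, keratin, Ugt1a and Hspa1 genes, are uncertain. The DMSO columns are numbered 1 and 2, whereas the labels give these samples other replicate numbers, so columns were mapped to groups only. The methods state biological replicates and the labels name no cultures, so p-values may measure no more than the spread between these libraries.

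The table had 16742 rows, of which 23 with a date in place of a gene name were dropped. Depth was estimated from genes shorter than 250 bases, whose low values fell on whole reads within 0.05. Values were tested as log2(RPKM + 0.5) for genes with a mean of at least 1 RPKM in limma 3.58.1 (R 4.3.3) with a trend of the variance on the mean and p-values adjusted after Benjamini and Hochberg, with a call at over 2-fold and an adjusted p under 0.05. Fold changes are on this scale, which understates changes of low genes. The study's methods give p-values without naming an adjustment, and unadjusted p-values were an alternative here. Its description of the genes lowered by both inhibitors gives adjusted p-values. For the difference of responses, the T-5224 and SB431542 tables were fitted together over the 10462 genes with a mean of at least 1 RPKM in both, each effect within its own table. The fits were tested on simulated data, where 200 of 200 genes changed 4-fold were recovered with 0 false calls for T-5224 against DMSO over 10809 genes, and 198 of 200 with 1 false call for the difference of responses over 10462 genes. The simulated noise was normal with the spread that limma fitted, and the changes were far over the standard error. Such recovery was close to fixed in advance, so it checks the code only and not the calls in these libraries.

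Gene lists were described by counts and medians only. The lists and the members to describe were chosen with earlier results of these data known. Genes were named by a rule: the 15 largest changes in each direction without overlap of the groups; the 12 largest in each direction among genes with a mean of at least 50 RPKM; up to 4 called members of each list with the largest change, or up to 2 members where none was called; genes the study follows; the 10 largest differences between the inhibitors in each direction; up to 6 called genes at 0 in both libraries of a group; and promoters that hold a motif. Some genes that meet this rule are not reported here. The following genes were named after their values were seen: Asns, Atf4, Cbs, Cd68, Cdh1, Chac1, Cxcl10, Dcn, Eif2ak2, Eif2ak3, Epcam, Erbb2, Fgf21, Fn1, Fth1, Ftl1, Gdf15, Irf1, Krt6a, Krt6b, Krt13, Krt17, Krt42, Krt90, Lars2, Mmp12, Mmp13, Mt1, Mt2, Mx2, Pecam1, Pmepa1, Ptch1, Smad2, Tgfbr1, Tgfbr2, Trp63, Txn1 and Vegfa. Promoter windows were matched by symbol and found for 78.2% of the genes tested, 72.7% of those down and 78.0% of those up. Alternatives covered the pseudocount, filter, scaling, trend, fold limit, block and each library left out.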

Additional observations from a re-analysis of the deposited data

How the results depend on the processing

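The counts of 1144 genes down and 1121 up lay between 1000 and 1307 and between 984 and 1239 with pseudocounts of 0.1 and 1, without a filter on low values, under 4 other scalings and without the mean-variance trend. Leaving out each library in turn gave 1102 to 1179 genes down and 1085 to 1179 up. With unadjusted p-values under 0.05 the counts were 1144 and 1121. A mean of at least 5 RPKM left 742 genes down and 835 up, as fewer genes were tested. A limit of 1.5-fold gave 2333 down and 2352 up, no limit 4260 and 4356, and a limit of 4-fold 270 and 229. The difference of the responses to the 2 inhibitors covered 1732 genes, 1956 and 1496 with pseudocounts of 0.1 and 1, 1737 with median centring, 1138 with a mean of at least 5 RPKM, and 1709 to 1763 with a library left out. Of the 2265 calls, 1872 held in all 13 other settings without the filter at 5 RPKM. Scaling to the same sum moved the median of all genes by −0.05. With the replicate block from the column numbers the counts were 1144 and 1121, as a block leaves the fold changes of this balanced design unchanged. The within-group differences of equal numbers correlated with r = 0.059 over 10809 genes, which cannot tell whether libraries were prepared in pairs.

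Around the 2-fold limit, Fosl2 passed it under quantile normalization (−1.06), under both sum scalings (−1.04), and without the first DMSO or the first T-5224 library (−1.01), and Ears2 passed it with a pseudocount of 0.1 (1.14), under quantile normalization (1.13), and without the first DMSO (1.07) or the second T-5224 library (1.06). Gli2 lost its call with a pseudocount of 1 (−0.84), under quantile normalization (−0.88) and without the second DMSO library, Hbegf (0.97), Acacb (0.91) and Mx2 (0.96) with a pseudocount of 1, Mmp13 with a pseudocount of 1 (−0.82) and under quantile normalization (−0.85), and Pfkl without the second DMSO library. The cause was not tested. With no filter, which lets in genes of low level, medians moved to −0.76 for keratins, −0.09 for extracellular matrix, 0.35 for amino acid transporters, −1.32 for BMP targets, −1.12 for keratinocyte differentiation, −0.69 for Wnt, −0.15 for complement and −0.12 for histones, and with a mean of at least 5 RPKM to −0.72 for p53 targets, −2.58 for Wnt and 2.19 for NF-kB feedback and cytokines. Restricting the promoters to the 250 bases before the start gave the AP-1 motif in 3.61% of genes down, 4.46% of genes up and 2.93% of all tested.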

Other observations

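Several lists and genes outside the pathways above had values of interest. The metallothioneins bind metal ions, and of the pair Mt2 rose from 929 and 947 RPKM to 2452 and 2605 RPKM (1.43) while Mt1 had 1885 and 1952 RPKM with DMSO and 1613 and 1709.9 RPKM with T-5224 (−0.21). Of 64 replication-dependent histone genes listed only 8 passed the level to be tested in this poly(A) library, 3 of which fell. The linker histone Hist1h1c had 38.9 and 46.0 RPKM with DMSO and 12.4 and 12.3 RPKM with T-5224 (−1.74), and Hist1h2bc fell too (−1.06). The third, Hist1h2be, was at 4.83 and 0.970 RPKM with DMSO and rests on the first of these libraries, as its log2 fold change was −0.39 without it. Of 10 complement genes 2 could be tested, and the protease gene C1ra fell (4.42 and 4.16 RPKM with DMSO and 0.810 and 0.788 RPKM with T-5224, −1.88). Of 74 mitochondrial ribosomal proteins 5 rose and 2 fell, with a median of 0.34.

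Genes listed at 0 in both DMSO libraries and called up were led by Lcn2, the iron-carrier binding lipocalin, with 4.36 and 4.51 RPKM with T-5224. Fa2h, a fatty acid hydroxylase, had 3.10 and 3.13 RPKM, the homeobox gene Hmx3 2.30 and 2.88 RPKM and the cytokine Il1f9 2.40 and 2.10 RPKM. Mir7022 had 3.20 and 1.0 RPKM, so that its T-5224 libraries differed by more than 3-fold. No fold change is given against a level of 0.

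Calls varied with gene properties. Among 4 bins by mean RPKM, genes down made up 15.3% of the lowest and 8.51% of the highest, and genes up 11.1% and 10.8%. By transcript length the shares were 9.16% down and 13.98% up in the shortest and 12.2% down and 7.05% up in the longest bin. Of 192 long noncoding RNAs 10.9% were down and 19.8% up. Length was known for 96.6% of the genes tested. Beside the keratin clusters, 7 Ugt1a genes in a row among those tested on chromosome 1 (NCBIM37 89951963 to 90116577) were up with log2 fold changes from 1.81 to 1.92, but they share exons, and the values are not independent.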
